A study of Mus musculus with 4 samples.

Results

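The intermediate filament genes Gfap, Vim, Nes, Synm and Des were measured in 4 cultures of mouse neural cells. They were chosen by gene name on a single-colour mouse expression array, which gave 5 genes of 22728 and 11 probes of 55681, printed as 20 of 59305 spots that were not controls. The study asked which genes lie downstream of Ceacam1, an immunoglobulin-like adhesion molecule of the cell surface. All 4 cultures carried the genotype p53-/-, came from brain of E14.5 embryos and grew without serum. NSC-Ceacam1L was a neural stem cell culture made to express Ceacam1L, and NSC was the neural stem cell culture it is set against. NSCL61-Ceacam1sh was NSCL61 with a short hairpin RNA against Ceacam1, and NSCL61 is known as a glioma-initiating line made by putting an activated Ras into p53-deficient neural stem cells. Expression vectors were transfected and transformants selected with hygromycin for 1 week. The labels do not say whether NSC and NSCL61 held an empty vector, or whether a culture was 1 clone. Each group had 1 array, so no p-value was computed and no difference has a replicate check.

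Intermediate filaments are rope-like polymers of rod-shaped proteins that give a cell mechanical strength. Vimentin, glial fibrillary acidic protein (GFAP) and desmin, encoded by Vim, Gfap and Des, are type III proteins that can form filaments by themselves, whereas nestin (Nes) and synemin (Synm) are long proteins that need a partner such as vimentin to enter a filament. In the developing brain, neural stem cells carry vimentin and nestin, and GFAP appears as astrocytes form. Desmin is the filament protein of muscle.

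Levels are given as log2 of the background-subtracted signal after division by the array's 75th percentile, so that 0 is that percentile. The ± value is the error that the scanner software models for the spot, which covers technical spread within an array only. For a probe printed on several spots, the spot errors were combined as if independent, which makes its ± smaller. For a difference, the errors of both arrays were combined. A probe was well above background where the software's own test said so, and between 27412 and 29550 probes were so on the 4 arrays. The 75th percentiles were 439 to 571 signal units, the median modelled error was 0.15 on each array, and no spot was saturated. A gene was called higher or lower from a 2-fold difference with the brighter array well above background. Where the other array was dim, the fold is a bound, written "at least", against the lowest signal well above background on the dim array or the dim probe's own, whichever was higher. Such a bound holds for this scaling and background subtraction only. All 4 arrays lay on 1 slide at 1 position each, which leaves slide position and group inseparable. No probe carried the name Ceacam1, so the level of the manipulated gene was not read here. Of 10 neural stem cell markers, 10 were well above background in NSC-Ceacam1L, 8 in NSCL61-Ceacam1sh, 9 in NSCL61 and 10 in NSC. They summed to 7.14 times the 75th percentile in NSCL61-Ceacam1sh, against 469 in NSC-Ceacam1L, 429 in NSCL61 and 653 in NSC, and in these 3 sums Fabp7 and Hes5 were the brightest members.

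What the oligonucleotides read decides what a level means, so parts of the brightest probe of each gene and of all Gfap probes are shown 5′ to 3′, from the array's own annotation on mm9. Of the probes at transcript ends, 30 of 60 bases are given. The Gfap probes marked variant 1 and variant 2 are assigned by the annotation to different transcripts, and the tail probe also to variant 1. The Nes stretch holds a polyadenylation signal in capitals, and the Des stretch the stop codon of the coding sequence in capitals.
Gfap variant 1, A_52_P52303, chr11:102751813-102751872, minus strand, bases 1 to 30: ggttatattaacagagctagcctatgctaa
Gfap variant 2, A_55_P2157250, chr11:102748864-102748923, minus strand, bases 1 to 30: tttgaggaactgaaacgtgttgtgttcaag
Gfap tail, A_55_P2157245, chr11:102752726-102752785, minus strand, bases 1 to 60: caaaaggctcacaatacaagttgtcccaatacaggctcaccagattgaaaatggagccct
Vim, A_51_P392687, chr2:13504232-13504291, plus strand, bases 1 to 30: gcagtttttcaggagcgcaagatagatttg
Nes, A_55_P1953728, chr3:87784303-87784362, plus strand, bases 31 to 60: ctctcttcctcccttgAATAAAgctgtatc
Synm, A_55_P2052696, chr7:74877629-74877688, minus strand, bases 1 to 30: gtaagctaacactggaaaggaaaataggtg
Des, A_51_P335969, chr1:75363404-75363629, plus strand, bases 1 to 60: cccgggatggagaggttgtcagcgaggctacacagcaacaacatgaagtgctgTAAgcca
The 60 bases of the Des probe span 226 bases of the genome, so the probe crosses an exon junction. Des was printed on 10 spots per array and each of the other 10 probes on 1 spot.

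**Figure D1:**
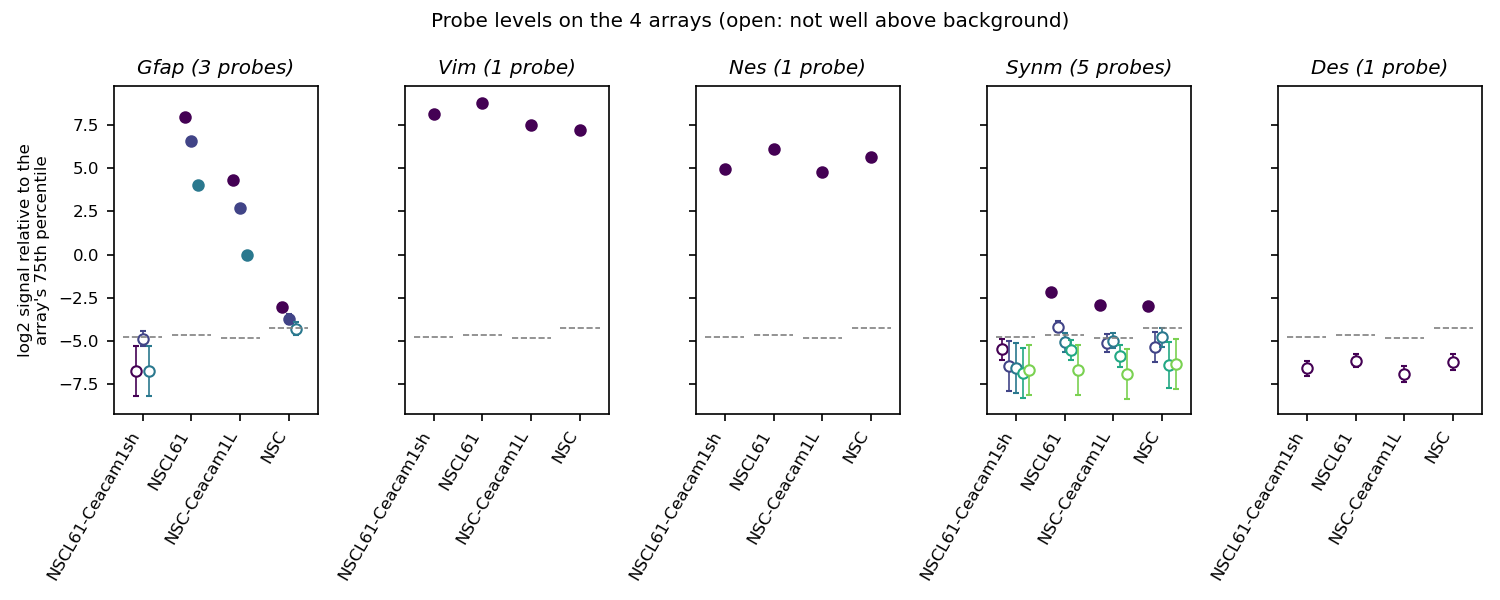
Level of each probe of the 5 genes on the 4 arrays, as log2 of the signal relative to the array's 75th percentile; bars are the modelled error, colours tell probes of a gene apart, filled points are well above background and dashed lines mark the lowest level well above background. The 3 Gfap probes run from below the dashed line to 7.97, while Vim stays between 7.22 and 8.76 and Des lies below the dashed line on all 4 arrays.

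Making neural stem cells express Ceacam1L went with a far higher Gfap signal, while Vim, Nes and Synm differed by less than 2-fold and Des was not measurable. The first Gfap probe, which the annotation assigns to variant 1, read a processed signal of 11381 in NSC-Ceacam1L, against 59.6 in NSC. Both arrays were well above background, and the scaled levels were 4.32 ± 0.14 in NSC-Ceacam1L and -3.01 ± 0.20 in NSC. The log2 difference was 7.33 ± 0.25, or 160 times, which ranked 1st of the 13956 genes that both arrays read well above background. The variant 2 probe was 86.1 times higher, at 2.70 ± 0.14 in NSC-Ceacam1L and -3.73 ± 0.27 in NSC. The tail probe was at -0.04 ± 0.14 in NSC-Ceacam1L and not well above background in NSC, so that it was at least 18.7 times higher. The first probe and the tail probe are assigned to the same transcript variant, and only the variant 2 probe to the other. All 3 probes were higher in NSC-Ceacam1L. In bulk cultures such as these, more cells that hold a transcript and more RNA per cell cannot be told apart.

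Vim, encoding the filament protein of neural progenitors and mesenchymal cells, was at 7.50 ± 0.14 in NSC-Ceacam1L and 7.22 ± 0.14 in NSC. The difference of 0.28 ± 0.20 was 1.36 times its modelled error and did not reach 2-fold. Nes, the classical marker of neural stem cells, was at 4.79 ± 0.14 in NSC-Ceacam1L and 5.68 ± 0.14 in NSC. Its difference of -0.89 ± 0.20 corresponded to 1.85 times lower, larger than the modelled error and short of the 2-fold call. Synm, whose product links vimentin and desmin filaments to adhesion sites, was at -2.91 ± 0.17 in NSC-Ceacam1L and -3.00 ± 0.19 in NSC, a difference of 0.08 ± 0.26 that lay within its error. Des was not well above background on either array.
Of the 4 filament genes that could be evaluated, 1 was called higher and 0 lower, where 10.4% of 15495 genes were called higher, 6.20% lower and 16.6% in either direction. Their median difference was 0.18, beside -0.10 over all genes evaluated.

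With the hairpin against Ceacam1 in NSCL61, Gfap and Synm were no longer well above background and Nes was lower, while Vim differed by less than 2-fold. The first Gfap probe read a processed signal of 5.04 in NSCL61-Ceacam1sh, against 109871 in NSCL61. The NSCL61-Ceacam1sh spot was not well above background, so this Gfap probe was at least 6735 times lower there. That bound is 12.72 on the log2 scale, and with normexp background correction the difference was smaller, at -10.81. The variant 2 probe was at least 2603 times lower, with -4.86 ± 0.42 in NSCL61-Ceacam1sh and 6.60 ± 0.14 in NSCL61. The tail probe was at least 439 times lower, with -6.73 ± 1.45 in NSCL61-Ceacam1sh and 4.03 ± 0.14 in NSCL61. None of the 3 probes was well above background in NSCL61-Ceacam1sh, and all 3 were in NSCL61.

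Vim was at 8.13 ± 0.14 in NSCL61-Ceacam1sh and 8.76 ± 0.14 in NSCL61, a difference of -0.63 ± 0.20 or 1.55 times lower. It was not called, although quantile normalization gave -1.03 and cyclic loess -1.10, both past 2-fold. Nes was at 4.95 ± 0.14 in NSCL61-Ceacam1sh and 6.13 ± 0.14 in NSCL61, a difference of -1.18 ± 0.20 or 2.27 times lower. This call was lost with median scaling at -0.76 and with spike-in scaling at -0.75. Synm was not well above background in NSCL61-Ceacam1sh, at -5.50 ± 0.61, against -2.18 ± 0.16 in NSCL61, and was at least 5.95 times lower. That bound is 2.57 on the log2 scale, and it was not kept with normexp background correction at -1.39 or the mean of all probes at -1.69.
Of 4 genes evaluated, 0 were called higher and 3 lower, where 23.3% of 15788 genes were called higher, 24.5% lower and 47.8% in either direction. Gfap and Synm entered this count only through NSCL61, where they were well above background. Synm was dim there too, at -2.18 on 1 probe. With genes dim on 1 array at their bound, the median of the 4 was -1.88, beside 0.00 over all genes evaluated, and nothing is read from it because Gfap and Synm make up 2 of its 4 values. Nes ranked 4225 by size among 13066 genes that both arrays read well above background.

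The low Gfap signal in NSCL61-Ceacam1sh stood beside lower levels of astrocyte, neuron and many other neural markers. In this comparison with NSCL61, 23.3% of all genes evaluated were called higher and 24.5% lower. Of 9 astrocyte markers evaluated, 9 were lower, and their summed signal was 7.64 times the 75th percentile in NSCL61-Ceacam1sh, against 749.8 in NSCL61. Mlc1, a membrane protein of astrocyte endfeet, differed by -12.14 on the log2 scale, Slc1a3, the glial glutamate transporter GLAST, by -8.43 and Aldoc, the brain aldolase, by -8.25. S100b was at least 352 times lower, and S100b, Slc1a2 and Gjb6 were not well above background in NSCL61-Ceacam1sh. Of 10 neural stem cell markers, 7 were lower and 1 higher. Fabp7, the fatty acid binding protein of radial glia, differed by -12.37, and Hes5, a Notch target, was at least 1728 times lower. Named after their values were seen, Prom1, encoding the surface protein prominin 1, was at least 5.15 times higher, and Msi1 and Pax6 were not called. Of 8 oligodendrocyte markers, 5 were lower and 1 higher, with Olig1 at least 2634 times lower. The higher marker was Mbp, named after its value was seen, whose brightest probe was dim, at -4.23 in NSCL61-Ceacam1sh. That probe was not well above background in NSCL61 but another Mbp probe was, so no bound is given. All 5 neuron markers evaluated were lower. Fibroblast markers went the other way: 5 of 6 evaluated were higher and 1 lower, and their sum was 21.7 in NSCL61-Ceacam1sh, against 0.40 in NSCL61. Dcn, encoding the matrix proteoglycan decorin, was at least 248 times higher, Pdgfrb, a receptor of mesenchymal cells, at least 82.0 times and Col3a1 differed by 5.25. Lum, Thy1 and Postn were not well above background there. The part of these cell type markers in the filament results was not tested.

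NSCL61 had the highest Gfap level of the 4 arrays and a higher Vim level than NSC. The first Gfap probe was at 7.97 ± 0.14 in NSCL61 and -3.01 ± 0.20 in NSC, a difference of 10.98 ± 0.25 or 2017 times. This ranked 1st of 13526 genes that both arrays read well above background. The variant 2 probe was 1283 times higher and the tail probe at least 315 times higher. Vim was at 8.76 ± 0.14 in NSCL61 and 7.22 ± 0.14 in NSC, a difference of 1.54 ± 0.20 or 2.91 times higher, ranking 1500 by size among those genes. Nes differed by 0.45 ± 0.20 and Synm by 0.82 ± 0.25, both larger than their errors and short of 2-fold. Of 4 genes evaluated, 2 were called higher and 0 lower, where 14.3% of 15485 genes were called higher, 14.0% lower and 28.4% in either direction. Their median was 1.18, beside 0.02 over all genes evaluated. The NSC array serves in 2 of the 3 comparisons and the NSCL61 array in 2, so their values are not independent and are only set side by side.

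**Figure D2:**
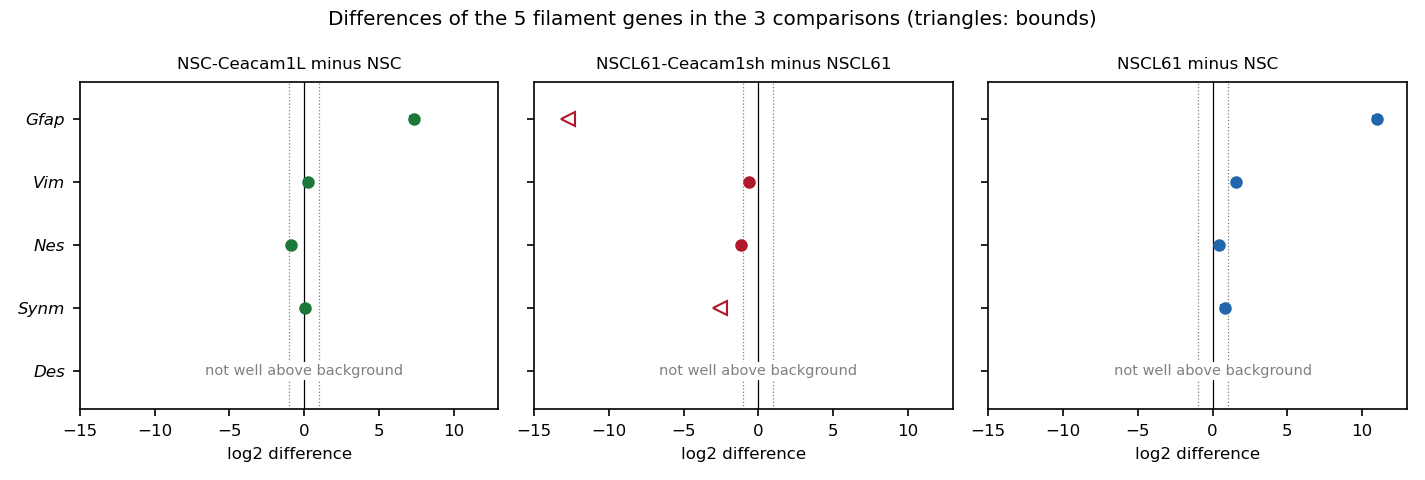
Log2 difference of the brightest probe of each gene in the 3 comparisons, named above each panel; bars are the modelled error, open triangles are bounds where 1 array was not well above background, and dotted lines mark 2-fold. Gfap lies at 7.33 and 10.98 in the outer panels and at least 6735 times lower in the middle panel, while Vim, Nes and Synm lie within 2-fold of 0 except Nes and Synm in the middle panel and Vim in the right one.

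**Figure D3:**
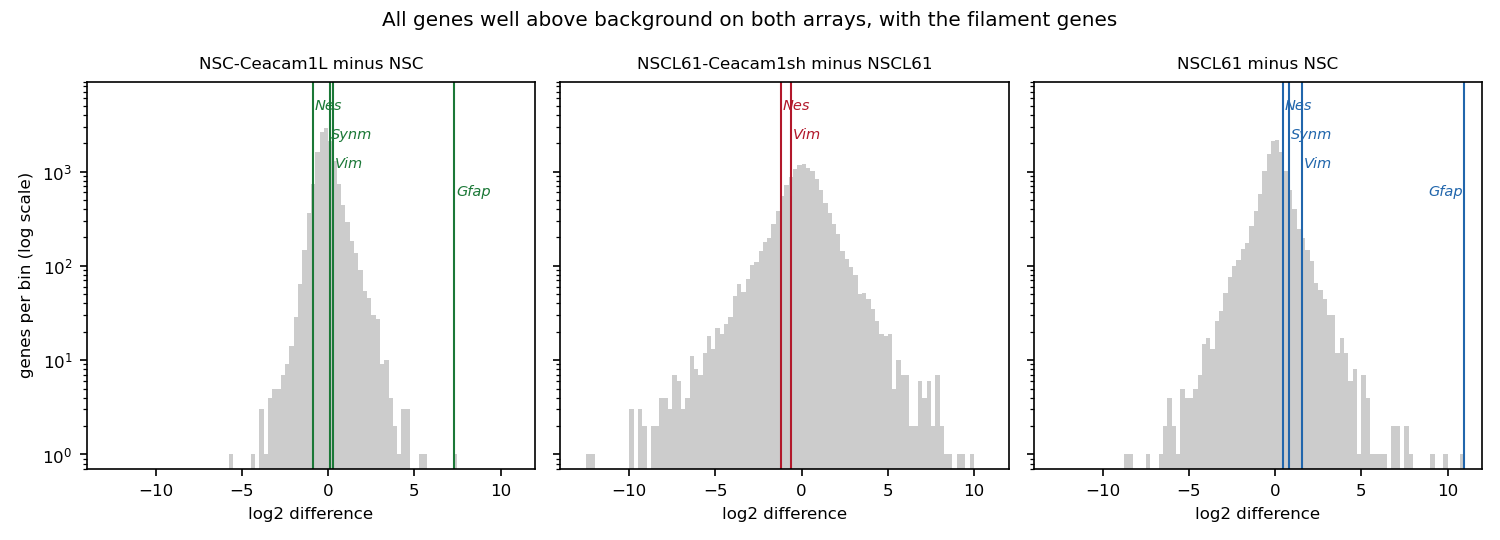
Number of genes, on a log scale, by log2 difference in narrow bins, for genes that both arrays read well above background; vertical lines mark the filament genes that met that condition. Gfap is the last gene at the right end in the left and right panels, and Vim, Nes and Synm stand inside the bulk of genes.

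Across the 4 cultures the order of the levels differed from gene to gene. Gfap was highest in NSCL61, then NSC-Ceacam1L, then NSC, and each step exceeded 2 modelled errors. In NSCL61-Ceacam1sh Gfap was not well above background. Vim was highest in NSCL61, followed by NSCL61-Ceacam1sh, with steps of at least 3.09 errors down to NSC-Ceacam1L, and NSC-Ceacam1L and NSC did not differ beyond 2 errors. These steps depended on the scaling. For Vim, NSCL61-Ceacam1sh minus NSCL61 was -0.21 with median and -0.20 with spike-in scaling, at an error of 0.20. NSC-Ceacam1L minus NSC was 0.83 with cyclic loess. Nes was highest in NSCL61 and next in NSC, 0.45 ± 0.20 apart, or 0.22 apart with spike-in scaling. NSCL61-Ceacam1sh and NSC-Ceacam1L shared the lowest Nes level, 0.16 ± 0.20 apart. For Synm, NSCL61 lay above NSC-Ceacam1L by 0.74 ± 0.23, and NSC-Ceacam1L and NSC were within error. In NSCL61-Ceacam1sh Synm was not well above background. Only the brightest Synm probe supports this order. The other 4 Synm probes were not well above background on any array, including the probe for variant 3 at chr7:74903754-74903813.

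Des was not well above background on any array. Its 10 spots averaged -6.60 ± 0.44 in NSCL61-Ceacam1sh, -6.14 ± 0.36 in NSCL61, -6.92 ± 0.45 in NSC-Ceacam1L and -6.21 ± 0.46 in NSC. On the NSC array 1 of the 10 spots, at a signal of 29.0, was marked as an outlier by the scanner software and left out. The muscle regulators Myod1, Myf5, Myog and Myocd, named here after their values were seen, were likewise not well above background on any array. Genes of contractile filaments did vary: Cnn1, encoding calponin, was at -4.14 in NSCL61-Ceacam1sh and 4.55 in NSCL61, whereas Smtn, encoding smoothelin, was at 4.14 in NSCL61-Ceacam1sh and 0.53 in NSCL61. Of the 16 muscle markers, 9 were evaluated between these arrays, 4 of them higher and 4 lower. Among all genes evaluated between them, 47.8% were called.

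Genes of the remaining intermediate filaments were called in both directions in each comparison. Beside their counts stand the 16.6%, 47.8% and 28.4% of all genes evaluated that were called in the 3 comparisons, in the order below. Of 15 genes for neurofilaments, lamins, keratins, syncoilin and the lens filaments, 11 were evaluated between NSC-Ceacam1L and NSC, and 4 were called higher and 2 lower. Bfsp2, encoding the lens protein phakinin, was at 1.82 in NSC-Ceacam1L and -1.08 in NSC, and Krt18, a keratin of simple epithelia, was at least 3.80 times higher. Lmnb1, encoding the nuclear lamina protein lamin B1, was at 3.39 in NSC-Ceacam1L and 4.53 in NSC. Between NSCL61-Ceacam1sh and NSCL61, 3 of 13 were higher and 6 lower. The lower ones included the neurofilament genes Nefm, Nefh and Ina, with log2 differences of -1.24, -3.69 and -4.01, and Bfsp2, at least 25.7 times lower. The higher ones included Lmna, encoding lamin A and C of the nuclear envelope, at 7.40 in NSCL61-Ceacam1sh and 4.37 in NSCL61, and Krt19, at least 12.5 times higher. Between NSCL61 and NSC, 7 of 12 were higher and 2 lower. Lmna was at 4.37 in NSCL61 and 1.47 in NSC, Nefh was at least 17.1 times higher, Sync, whose product binds desmin, at least 8.08 times, and Lmnb1 differed by -2.19. With genes dim on 1 array at their bound, the list medians were 0.35, -0.17 and 1.02 in the 3 comparisons in the order given. With normexp background correction the called genes numbered 2, 5 and 5 in place of 6, 9 and 9.

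Genes for filament linkers and chaperones included higher ones in all 3 comparisons, also where Gfap was lower, and none of those evaluated was called lower. Of all genes evaluated, 10.4%, 23.3% and 14.3% were called higher in the order below, and 6.20%, 24.5% and 14.0% lower. Of 7 genes evaluated between NSC-Ceacam1L and NSC, 4 were higher, or 4 to 5 under 5 other scalings and background corrections, with a list median of 1.91. Plec, encoding the cytolinker plectin, was at 3.19 ± 0.14 in NSC-Ceacam1L and 0.42 ± 0.14 in NSC. Cryab, encoding the chaperone αB-crystallin that accumulates with GFAP in Alexander disease, was at 3.11 in NSC-Ceacam1L and 0.91 in NSC. Hspb1, encoding HSP27, differed by 1.91 and Hspb8 by 1.97, each larger than its error. Between NSCL61-Ceacam1sh and NSCL61, 3 of 8 were higher with a median of 0.63: Hspb1 differed by 3.55, Plec by 1.56, and Ppl, encoding periplakin, was at least 45.1 times higher. Cryab at -0.08 ± 0.20 and Hspb8 at 0.16 ± 0.20 differed by less than their error. Between NSCL61 and NSC, 5 of 7 were higher, with a median of 1.91. Hspb8 was at 2.49 in NSCL61 and -2.87 in NSC, Plec at 4.49 in NSCL61 and 0.42 in NSC, Cryab at 4.12 in NSCL61 and 0.91 in NSC, and Dst, encoding dystonin, differed by 1.58. Macf1, encoding a linker of actin and microtubules, differed by 0.41 or less in size in each comparison.

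**Figure D4:**
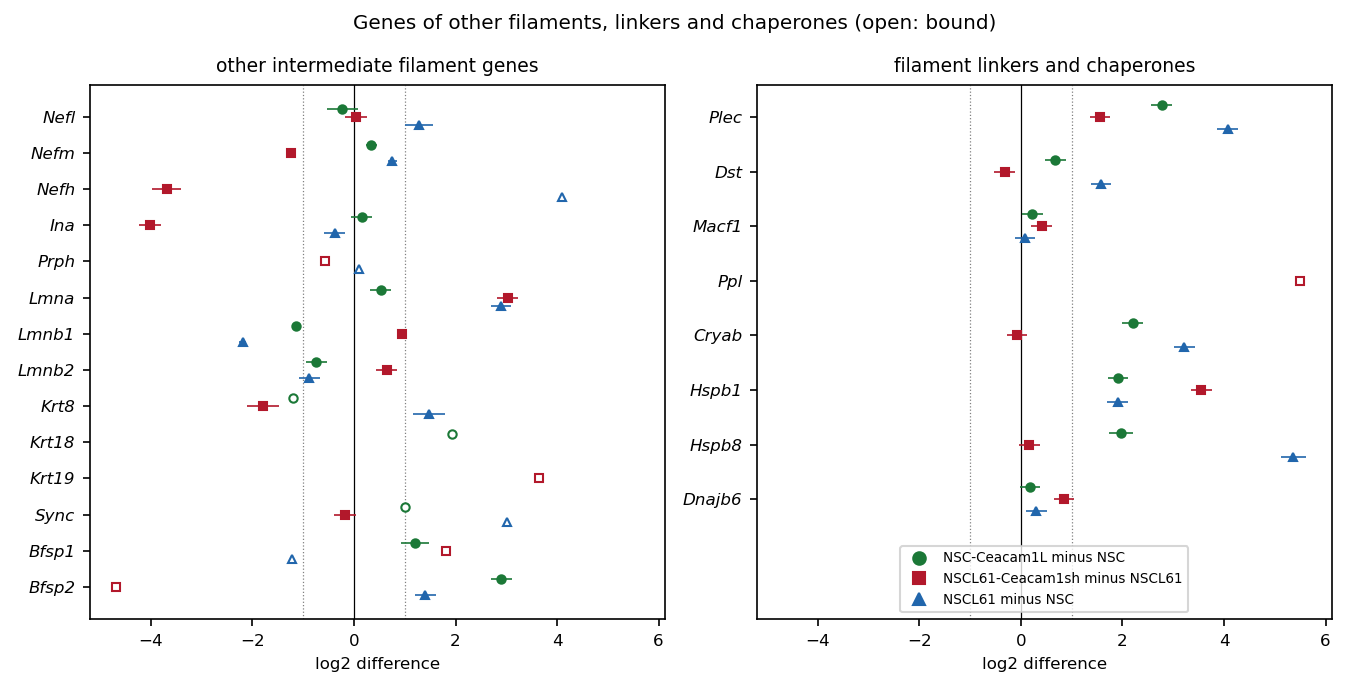
Log2 differences of the other intermediate filament genes (left) and of filament linkers and chaperones (right) in the 3 comparisons, with the modelled error; open symbols are bounds and dotted lines mark 2-fold. On the right no symbol lies below -1, while on the left symbols lie on both sides, with Lmna at 3.03 in the red series and 2.90 in the blue one.

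Of the enzymes that modify filament proteins, Padi2, which converts arginine of GFAP and vimentin to citrulline, had the largest differences. Padi2 was at 0.21 in NSC-Ceacam1L and -2.10 in NSC, at -2.95 in NSCL61-Ceacam1sh and 1.96 in NSCL61, and its differences were 2.31, -4.92 and, between NSCL61 and NSC, 4.06. Prkca, a protein kinase C, differed by 1.26 between NSC-Ceacam1L and NSC, by -2.53 between NSCL61-Ceacam1sh and NSCL61 and by 2.39 between NSCL61 and NSC. The mitotic kinases that phosphorylate vimentin at division went the other way: Plk1 was at 6.23 in NSCL61-Ceacam1sh and 3.01 in NSCL61, and differed by -2.36 between NSCL61 and NSC. Aurkb differed by -1.70 between NSC-Ceacam1L and NSC, was at least 4.53 times higher in NSCL61-Ceacam1sh than in NSCL61, and at least 5.22 times lower in NSCL61 than in NSC. Over the 15 enzymes, 2 were higher and 2 lower between NSC-Ceacam1L and NSC, 4 higher and 3 lower between NSCL61-Ceacam1sh and NSCL61, and 3 higher and 3 lower between NSCL61 and NSC. The list medians were -0.22, 0.34 and 0.05. Over all genes evaluated, 16.6%, 47.8% and 28.4% were called in either direction in these comparisons.

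Genes known to act on Gfap transcription fall in the cytokine and STAT3 pathway, the NFI and SOX9 factors, Notch and BMP signalling, and repressors of glial fate. Over all genes evaluated, 16.6%, 47.8% and 28.4% were called in the 3 comparisons in the order below, and this list was called at close to these shares. Of 24 evaluated between NSC-Ceacam1L and NSC, 4 were higher and 0 lower, and the list median was 0.17. Osmr, the oncostatin M receptor, was at 0.50 in NSC-Ceacam1L and not well above background in NSC, at least 27.2 times higher. Il6st, the shared gp130 subunit, differed by 1.26, and Cntfr, the ciliary neurotrophic factor receptor, by 1.37. Stat3, which these receptors activate, differed by 0.26 ± 0.06, more than its error and short of 2-fold, and Sox9 by 0.29 ± 0.07. Between NSCL61-Ceacam1sh and NSCL61, 4 of 24 were higher and 8 lower, with a median of -0.44. Nfia, a factor that opens glial genes in the embryo, was at least 50.2 times lower, Cntfr at least 25.3 times, and Olig2 at least 420 times lower. Sox9 was at 1.78 in NSCL61-Ceacam1sh and 3.84 in NSCL61, and Stat3 at 3.42 in NSCL61-Ceacam1sh and 5.15 in NSCL61. Osmr was higher by 1.51, Id1 by 2.64, Nfic by 1.36 and Rbpj, the DNA-binding partner of Notch, by 1.26. Between NSCL61 and NSC, 5 of 24 were higher and 2 lower, with a median of 0.24. Osmr was at least 18.6 times higher, Il6st differed by 1.80, Smad1 by 1.75, Nfic by 1.54 and Nfix by 1.06, while Lifr, the leukaemia inhibitory factor receptor, differed by -1.65 and Hes5 by -1.17.

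Genes known to act on Nes, mostly SOX and POU factors that bind its neural enhancer, showed no call between NSC-Ceacam1L and NSC, with a median of -0.02 over 8 genes. Between NSCL61-Ceacam1sh and NSCL61, 0 of 7 were higher and 5 lower, with a median of -1.998. Sox1 was at -3.55 in NSCL61-Ceacam1sh and 2.56 in NSCL61, Sox3 at -1.23 in NSCL61-Ceacam1sh and 4.24 in NSCL61, and Pou3f2 at -4.27 in NSCL61-Ceacam1sh and 1.00 in NSCL61, whereas Nes itself differed by -1.18 between these arrays. Between NSCL61 and NSC, 0 of 8 were higher and 2 lower, with Sox3 differing by -1.67. Calls in either direction made up 16.6%, 47.8% and 28.4% of all genes evaluated in the 3 comparisons, in this order.

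Of 10 astrocyte markers other than Gfap, 6 were called higher and 0 lower in NSC-Ceacam1L than in NSC. The summed signal of the 10 was 825 times the 75th percentile in NSC-Ceacam1L, against 475 in NSC. Aldoc and Mlc1, which were not called between these arrays, were the brightest members in both sums. Gjb6, encoding connexin 30, was at least 19.2 times higher, and Aqp4, the water channel of astrocyte endfeet, differed by 3.77, Gja1, encoding connexin 43, by 2.76 and S100b by 2.12. The 4 not called were Aldoc at 0.84, Mlc1 at 0.82, Aldh1l1 at 0.60 and Slc1a3 at -0.07, given after their values were seen. In NSCL61, 5 of 9 were higher and 1 lower than in NSC, with sums of 749.8 in NSCL61 and 475 in NSC. Aldoc and Mlc1 were the brightest members in NSCL61 too. Gja1 differed by 3.53, Aqp4 by 2.57 and S100b by 2.24, while Aldh1l1, a folate enzyme of astrocytes, differed by -1.84. Their part in the Gfap differences was not tested. Among all genes evaluated, 10.4% were called higher and 6.20% lower in NSC-Ceacam1L than in NSC. The shares were 14.3% higher and 14.0% lower in NSCL61 than in NSC.

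The genes whose profile over the 4 arrays was nearest to each filament gene were found by the root mean square distance of log2 profiles, each centred on its own mean. For Gfap, 13441 genes were compared and the 5 nearest were Cyp4f14, Sulf1, Itih3, Adra2a and C4b. Their distances ran from 2.04 to 2.78 on the log2 scale, so none of these genes lay close to Gfap. Neither Gfap nor Synm was well above background in NSCL61-Ceacam1sh, and of these 5 genes only C4b was. The distances for Gfap and Synm thus rest partly on values with only a bound and give no order. C4b, a complement component, was at 2.90 in NSC-Ceacam1L and -2.48 in NSC, and at -3.64 in NSCL61-Ceacam1sh and 3.48 in NSCL61. The nearest to Vim among 12577 genes were Man2c1os at 0.0331, Twsg1, E030030I06Rik, Yipf4 and Sim2, all within 0.0762. The nearest to Nes were E330018D03Rik at 0.0519, Esyt3, Slc22a13b, Zc3h6 and Rnu1b6, and the nearest to Synm were Coro2b, Mapk8ip1, Fam229b, Tmem205 and Zfp41.

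The 250 bases upstream of the start site are shown for Gfap, the gene with the widest range, and for Vim, which was bright in all 4 cultures. They were taken from RefSeq for GRCm38.p6, where all 5 genes matched. Capitals mark matches to 9 motifs searched on both strands: TTCNNNGAA for STAT factors, TGANTCA for AP-1, TGACGTCA for CRE, TTGGCA for NFI, ACAAAG for SOX, GGGCGG for the GC box, CANNTG for the E box, TATAAA for the TATA box and the box named for its letters, CCAAT.
Gfap, chr11:102897201-102897450, minus strand: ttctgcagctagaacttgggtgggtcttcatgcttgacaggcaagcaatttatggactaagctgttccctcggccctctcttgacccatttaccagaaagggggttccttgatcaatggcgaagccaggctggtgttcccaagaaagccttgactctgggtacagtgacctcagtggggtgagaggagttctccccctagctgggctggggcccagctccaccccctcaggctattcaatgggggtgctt
Vim, chr2:13574061-13574310, plus strand: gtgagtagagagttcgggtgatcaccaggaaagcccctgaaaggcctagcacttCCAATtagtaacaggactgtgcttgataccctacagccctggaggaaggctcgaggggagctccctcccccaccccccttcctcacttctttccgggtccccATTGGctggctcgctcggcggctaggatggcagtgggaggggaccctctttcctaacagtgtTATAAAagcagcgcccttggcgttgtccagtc
The Vim window held a TATA box whose first base lay at -32 from the start site and CCAAT boxes at -94 and -196, and these did not overlap. A TATA box was found in 12.4% and a CCAAT box in 33.8% of 32851 such windows. The Gfap window held none of the 9 motifs, although a STAT match was found in 7.02%, an NFI site in 12.3% and an E box in 66.2% of the windows. These are matches of letters in this window only.

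How the arrays were scaled changed whether Vim and Nes were called between NSCL61-Ceacam1sh and NSCL61. The median of genes seen on both arrays was -0.14 between NSC-Ceacam1L and NSC and moved to 0.24 with spike-in scaling. Between NSCL61-Ceacam1sh and NSCL61 it was 0.07 and moved to 0.50 with spike-in scaling, and between NSCL61 and NSC it was 0.01 and moved to -0.22. Of all calls, 62.8%, 48.7% and 50.6% were higher in the 3 comparisons, and these shares became 83.8%, 64.5% and 39.5% with spike-in scaling, 76.1% with cyclic loess in the first and 64.1% with median scaling in the second. Gfap, Vim and Nes kept their direction under each of 8 settings in each comparison. Vim between NSC-Ceacam1L and NSC was 0.28 to 0.83, and Synm between them, within its error of 0, was -0.08 with normexp background correction.

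**Figure D5:**
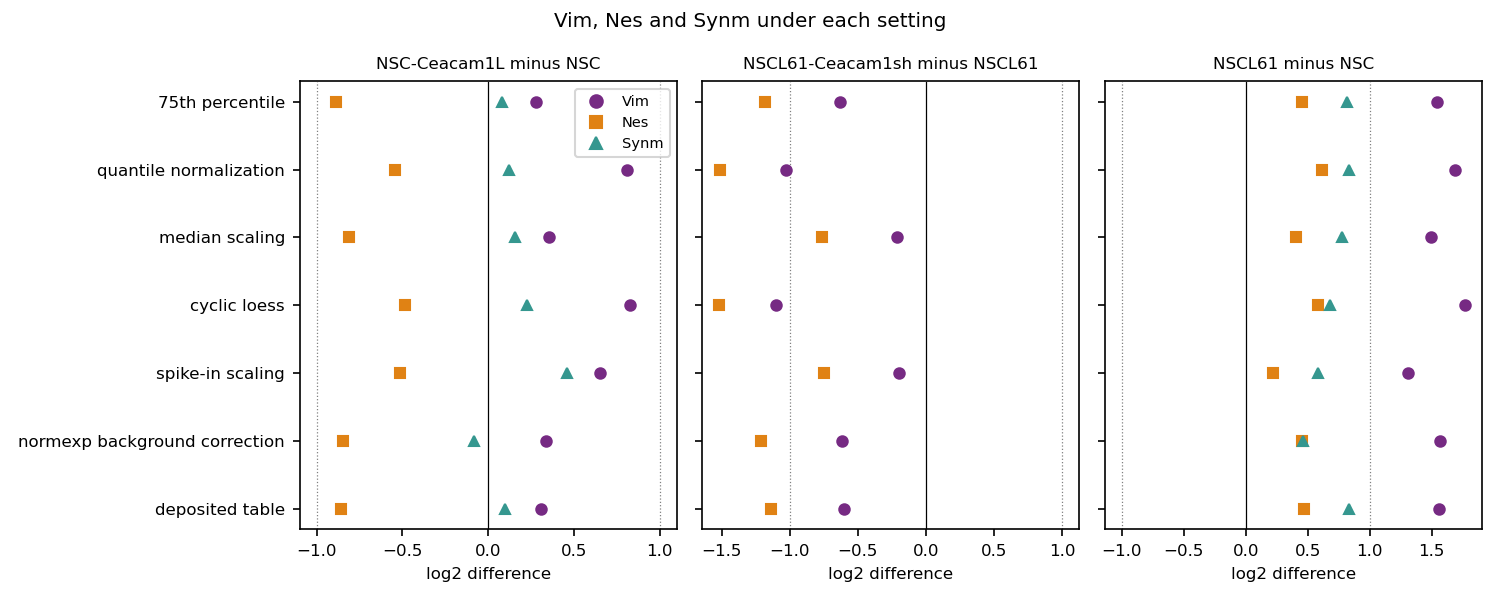
Log2 differences of Vim, Nes and Synm in the 3 comparisons under the 75th percentile and 6 other settings. Dotted lines mark 2-fold, and Synm is left out of the middle panel, where it was not well above background in NSCL61-Ceacam1sh. In the middle panel Nes crosses the 2-fold line with median and spike-in scaling and Vim with quantile normalization and cyclic loess. In the outer panels no gene crosses a 2-fold line. Synm in the left panel lies at 0.08 with the 75th percentile and at -0.08 with normexp background correction.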

How the data were processed

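Total RNA of 4 cultures was measured on 1 array each (0.5 µg, Cy3). Each deposited scanner file held 62976 spots of an Agilent mouse array (design 028005), and its intensity values, background-subtracted processed signals with a modelled error, were made by the authors with Feature Extraction 10.7.3.1 per the file headers, under protocol GE1_107_Sep09. The submitters' processing notes name version 9.1. The deposited NSC file had been rounded to 3 significant digits and held 58 changed gene names, so names came from the NSCL61 file. The authors' deposited value table holds log2 values, and its differences followed the scanner signals with slopes of 0.9999 to 1.0000. Its centring stayed unknown (column medians -0.20 for NSC-Ceacam1L, 0.25 for NSC, 0.03 for NSCL61-Ceacam1sh and 0.00 for NSCL61), and it served only as an alternative.

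The log2 processed signals were set relative to the 75th percentile of all spots on the array that were not controls. Outlier spots (143 to 187 per array) were left out, and the spots of a probe were averaged. A probe counted as well above background where at least 50% of its spots did. Probes were named by accession (27319), symbol (3528), older symbol (551) or the file's name (420) through the RefSeq table of GRCm38.p6, and 23863 without a name stayed out of gene counts. A gene took the value of its probe with the highest mean, which concerned 7045 genes with several probes. Medians over a list or over all genes hold genes dim on 1 array at their bound, or at 0 where there is none. With 1 array per group no test was run. Numbers of arrays limit the precision, and modelled errors cover technical spread only.

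Groups were taken from the sample titles. The 5 genes and the 13 gene lists (139 genes, 138 with a probe) were chosen with earlier results of these data known. Besides the members, genes of the lists of other filament genes, linkers and Gfap regulators were named, up to 4 genes with the largest called difference of any other list in each comparison, and the 5 nearest profiles. Some genes that this rule names are not reported here. Alternatives were quantile, median, cyclic loess and spike-in scaling (8 probes), normexp with an offset of 50 (limma 3.58.1), the deposited table, the mean of all probes, no filter on dim probes, outlier spots kept and a 1.5-fold threshold. Python 3.11.15, pandas 2.3.3 and R 4.3.3 were used.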

Additional observations from a re-analysis of the deposited data

How the results depend on the processing

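Of 120 recomputed differences of the 5 genes, 88 moved by less than the modelled error, 32 moved by more and 0 of the called ones changed sign. With a 1.5-fold threshold, 2 filament genes in place of 1 were called between NSC-Ceacam1L and NSC. With normexp background correction, 2 of the other intermediate filament genes were called between NSC-Ceacam1L and NSC, 5 between NSCL61-Ceacam1sh and NSCL61, and 5 between NSCL61 and NSC. The other 56 of 60 recomputed counts stayed within 1.5 times. Of 105 counts of 7 further lists under scalings added after seeing the data, 102 did so. The causes were not tested. Gfap ranged from 6.0035 to 7.70 between NSC-Ceacam1L and NSC and from 9.80 to 11.13 between NSCL61 and NSC. Between NSCL61-Ceacam1sh and NSCL61, where NSCL61-Ceacam1sh was dim, Gfap ranged from -14.76 to -10.81 and Synm from -3.32 to -1.39. Nes ranged from -1.52 to -0.75 and Vim from -1.10 to -0.20 between NSCL61-Ceacam1sh and NSCL61. Des, dim on both arrays, changed sign between NSCL61 and NSC under 3 of 8 settings, at -2.08 in the deposited table, -0.16 with spike-in scaling and -0.15 with outlier spots kept. Signals under about 17.5 to 24.9 units were below the lowest level well above background, so Gfap and Synm in NSCL61-Ceacam1sh and the Gfap tail probe in NSC allow bounds only, and Des and 4 Synm probes allow no fold. No paired analysis was possible because each group had 1 array.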

Other observations

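Between NSC-Ceacam1L and NSC, 4 of 6 muscle markers evaluated were higher and 0 lower, all of them contractile genes. Over all genes evaluated there, 10.4% were called higher and 6.20% lower. Acta2, encoding smooth muscle actin, was at 2.84 in NSC-Ceacam1L and 0.56 in NSC, and Cnn1, Acta1 and Tagln differed by 1.79, 1.24 and 1.23 on the log2 scale. Cnn1 was at 4.55 in NSCL61 and -3.07 in NSC, whereas Tagln was at -0.07 in NSCL61 and 1.18 in NSC. Tnnt2, encoding a cardiac troponin T, was at 3.84 in NSCL61-Ceacam1sh and not well above background in NSCL61, at least 358 times higher, while Actc1, encoding cardiac actin, was at least 56.5 times lower.

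Tubb3, the tubulin of young neurons, was at 0.64 in NSCL61-Ceacam1sh and 5.29 in NSCL61, and at 5.29 in NSCL61 and 1.05 in NSC. Of 6 neuron markers evaluated between NSCL61 and NSC, 3 were higher and 1 lower, Rbfox3, at least 2.92 times lower in NSCL61. Over all genes evaluated between NSCL61 and NSC, 14.3% were called higher and 14.0% lower. Of the 6 endothelial and pericyte markers, 2 were evaluated between NSC-Ceacam1L and NSC with 0 called, and of the 5 microglia markers 2 with 0 called. Among all genes evaluated between these arrays, 16.6% were called. Aif1 and Ptprc, named after their values were seen, were not well above background on any array. Itgam and Csf1r, named likewise, were well above background on every array, and Cx3cr1 in NSCL61 only.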
